A study of Mus musculus with 12 samples.

Results

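Vascular growth factors, endothelins and adrenomedullin were followed in mouse granulosa cells before and after an ovulatory stimulus. The genes were the VEGF ligands Vegfa, Vegfb and Vegfc, the angiopoietins Angpt1 and Angpt2, the endothelins Edn1 and Edn2, the endothelin receptors Ednra and Ednrb, and adrenomedullin, Adm. They were chosen by symbol, as every probe set of the deposited array table whose platform annotation gives 1 of these 10 symbols. This gave 17 probe sets of 9 genes, out of 45101 probe sets, of which 34958 carried exactly 1 gene symbol (18194 genes) and were tested. Ednra had no probe set under that symbol in the annotation table used and was not analysed here.

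Each of the 12 Affymetrix arrays measured RNA from granulosa cells of 5 pooled mice, with 3 arrays in each of 4 groups. Ex6DEL mice lacked exon 6 of Snf2l (symbol Smarca1), which encodes the ATPase of ISWI remodelling complexes. The deletion was made by crossing mice with floxed exon 6, on a 129Sv background, to a Gata-1 Cre line on a CD-1 background in which Cre is expressed ubiquitously. It passed through the germline and was then kept without Cre on 129Sv, so every cell of an Ex6DEL mouse carried it, and the wild-type (WT) controls were littermates. All mice were females, injected at 24 to 26 days of age with pregnant mare serum gonadotropin (PMSG, 5 IU), which drives follicle growth. The 4 h groups (Ex6DEL and WT) were injected 48 h after PMSG with an LH receptor agonist, human chorionic gonadotropin (hCG, 5 IU), in place of the surge of luteinizing hormone (LH), and collected 4 h later. The 0 h groups (Ex6DEL and WT) were collected 48 h after PMSG without hCG. The labels mention 5 mice per group and do not say whether the 3 arrays of a group held separate pools, so p-values measure the spread between arrays, which may be technical. The series title is about Snf2l in superovulation and names none of these genes.

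Background on these genes comes from the field and not from these arrays. The growing follicle keeps its capillaries in the theca, outside the basement membrane of the granulosa layer, and vessels enter that layer only when the corpus luteum forms. Granulosa cells release VEGF ligands, which act on receptor tyrosine kinases of endothelial cells, while the angiopoietins act on the endothelial receptor TEK: ANGPT1 steadies vessels and ANGPT2 can oppose it. Endothelins act through the receptors EDNRA and EDNRB and can contract smooth muscle. EDN2 is known from rodents as a signal made by granulosa cells around follicle rupture. Adrenomedullin widens vessels through CALCRL paired with RAMP2 or RAMP3.

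The sequence around the start of 3 genes is shown before their values: Vegfc and Adm, the genes whose probe sets passed the test for hCG below, and Edn2, whose call hung on 1 array. They were chosen after their values were seen. Windows of 300 bases, from 250 before to 50 after the annotated start, came from RefSeq on GRCm38.p6. The table held 9 windows for 8 of the 10 genes (2 for Vegfa), and none for Angpt1 and Angpt2. The windows of Vegfc, Adm and Edn2 are given 5′ to 3′, and capitals mark every match, on either strand, to a motif searched. The motifs were the hypoxia response cores ACGTG and GCGTG, the RUNX motif TGTGGT, the cAMP response element TGACGTCA and its part TGACGT, the AP-1 motif TGANTCA, the steroid receptor part site AGAACA, the NR5A1 motif CAAGGNCA and the GC box GGGCGG. TGACGTCA contains TGACGT, and TGACGT and ACGTG can share bases.
Vegfc, chr8:54077282-54077581, plus strand: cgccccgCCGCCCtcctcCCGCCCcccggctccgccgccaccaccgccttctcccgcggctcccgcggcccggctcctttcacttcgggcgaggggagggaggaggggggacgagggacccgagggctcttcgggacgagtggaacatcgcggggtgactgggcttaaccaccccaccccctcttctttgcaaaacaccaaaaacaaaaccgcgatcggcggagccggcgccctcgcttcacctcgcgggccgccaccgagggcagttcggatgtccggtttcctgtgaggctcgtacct
Adm, chr7:110627407-110627706, plus strand: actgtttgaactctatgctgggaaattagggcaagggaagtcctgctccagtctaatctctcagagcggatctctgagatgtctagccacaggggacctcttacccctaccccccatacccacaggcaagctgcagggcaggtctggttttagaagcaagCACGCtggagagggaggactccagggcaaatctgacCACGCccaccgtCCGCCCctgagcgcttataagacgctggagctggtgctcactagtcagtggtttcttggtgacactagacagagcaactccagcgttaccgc
Edn2, chr4:120160956-120161255, plus strand: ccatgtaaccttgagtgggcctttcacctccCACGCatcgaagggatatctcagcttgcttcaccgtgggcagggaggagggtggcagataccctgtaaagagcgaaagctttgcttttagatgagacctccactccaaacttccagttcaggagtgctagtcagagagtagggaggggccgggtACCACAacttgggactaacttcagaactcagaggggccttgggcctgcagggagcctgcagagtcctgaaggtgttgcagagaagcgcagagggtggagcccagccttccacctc

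The Vegfc window held GGGCGG at -243 and -232 from the start and no other motif. The Adm window held GCGTG at -90 and -54 and GGGCGG at -42. The Edn2 window held GCGTG at -219 and TGTGGT at -65. Among 32851 RefSeq windows of the same length, 35.7% held GGGCGG, 32.4% held GCGTG and 16.8% held TGTGGT, so each of these letter strings is common. A match here is a description of the sequence and says nothing of binding.

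Values are deposited log2 intensities made with GCRMA, which removes background signal by probe composition, normalizes between arrays and gives 1 value per probe set. They ran from 2.21 to 18.2 with a median of 2.82. A probe set's level depends on its own probes, so levels are compared between groups and never between probe sets. Where values are called near background, the table median and the lowest value are meant, and no cutoff was tested. GCRMA gave many probe sets 1 identical value on several arrays, and 8 of the 17 probe sets of these genes, against 58.8% of all tested, had such a value on at least 3 arrays. A difference that starts at a repeated value is therefore poorly measured on that side. The 3 arrays per group limit the precision.

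Several arrays stood apart, and they touch the genes described here. The mean level of 11 LH-induced genes, among them Ptgs2, Pgr and Btc, was 12.97, 11.77 and 12.54 on the Ex6DEL 4 h arrays, 4.47, 3.85 and 9.82 on the Ex6DEL 0 h arrays, 13.15, 12.32 and 11.48 on the WT 4 h arrays and 5.26, 3.91 and 4.25 on the WT 0 h arrays. Ex6DEL 0 h replicate 3 therefore lay between the other 0 h arrays and the 4 h arrays although labelled 0 h, and over all probe sets it correlated best with WT 4 h replicate 3 (Pearson r 0.986 across probe sets, which are not replicates). WT 0 h replicate 1 had the next highest value among the arrays labelled 0 h. The mean of 15 theca, stroma and smooth muscle markers ran from 6.31 to 7.35 in Ex6DEL 4 h, from 6.96 to 9.76 in Ex6DEL 0 h, from 6.94 to 7.24 in WT 4 h and from 6.59 to 7.66 in WT 0 h. Ex6DEL 0 h replicate 1 held the highest value. That array held the highest or the lowest value of several genes below, and the part of other cells in those values was not tested. The mean of 11 granulosa markers, of which Amh was at the floor on all arrays, ran from 11.11 to 11.27 in Ex6DEL 4 h, from 12.39 to 13.06 in Ex6DEL 0 h, from 11.39 to 11.80 in WT 4 h and from 11.64 to 12.54 in WT 0 h. The 4 h and 0 h ranges were apart in Ex6DEL and overlapped in WT. The mean of 9 oocyte markers ran from 7.39 to 8.02 in Ex6DEL 4 h, from 7.64 to 8.79 in Ex6DEL 0 h, from 7.25 to 7.64 in WT 4 h and from 6.66 to 7.63 in WT 0 h, and its highest value was on Ex6DEL 0 h replicate 1 as well. The part of these shifts in the results below was not tested. Smarca1 read 11.32 ± 0.77 in Ex6DEL 4 h, 10.76 ± 0.18 in Ex6DEL 0 h, 11.36 ± 0.84 in WT 4 h and 10.72 ± 0.40 in WT 0 h (mean ± SD, n = 3 arrays). Where its probe set lies relative to exon 6 was not examined, so these levels do not check the deletion.

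**Figure D1:**
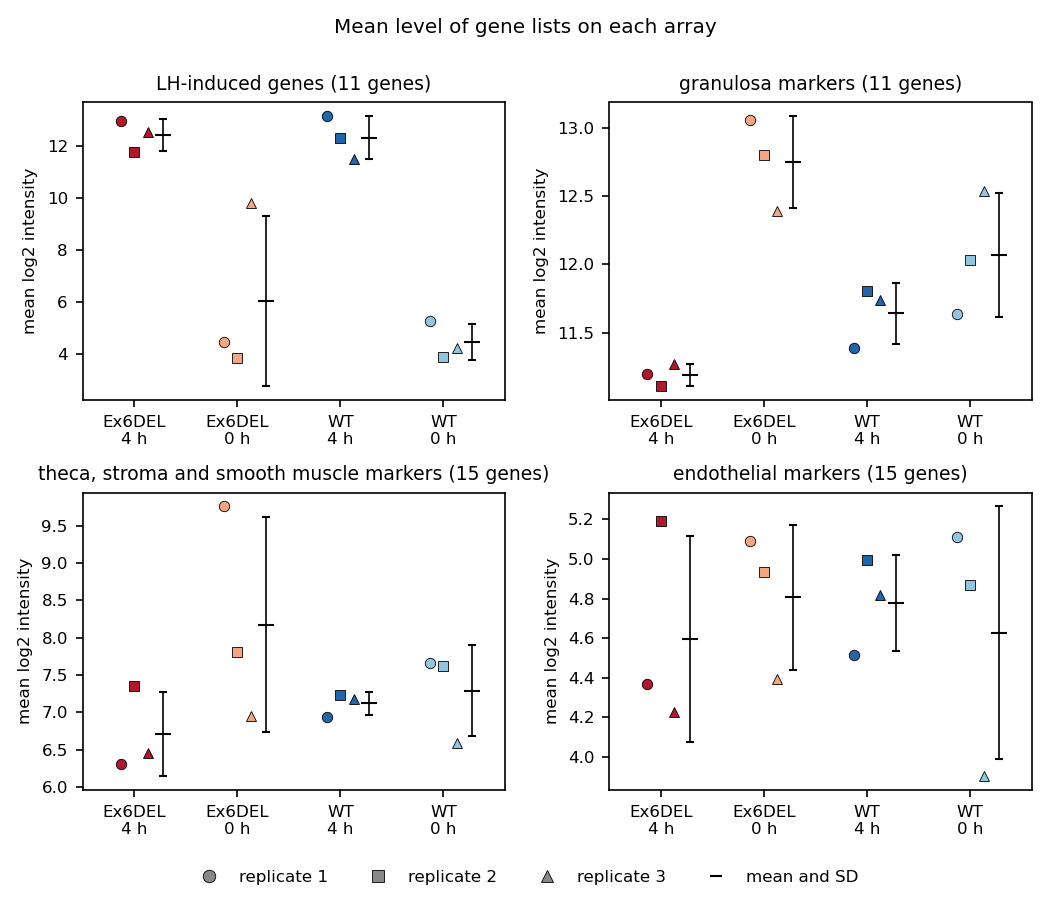
Mean log2 intensity of 4 gene lists on each array (y axis, log2 units, a separate scale in each panel), by group on the x axis. Symbols are arrays (replicates 1, 2 and 3) and bars are mean and SD of 3 arrays. Ex6DEL 0 h replicate 3 sits at 9.82 for LH-induced genes, and Ex6DEL 0 h replicate 1 sits at 9.76 for theca, stroma and smooth muscle markers.

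Over both genotypes, 3 of the 17 probe sets were higher 4 h after hCG: 2 of Vegfc and 1 of Adm. One linear model (limma, two-sided moderated test, Benjamini-Hochberg adjustment over all 34958 probe sets, called at an adjusted p under 0.05) gave the changes of each genotype and their average. In the average, 6.06% of all probe sets were called, 2.49% higher and 3.57% lower, and no probe set of these genes was lower. Within a genotype no probe set of these genes was called by limma, where 0.618% of all probe sets were called in WT and 0.858% in Ex6DEL. At an unadjusted p under 0.05 the numbers were 7 of 17 in Ex6DEL, where 15.3% of all probe sets lay under it, 6 of 17 in WT (12.1% of all) and 9 of 17 in the average (19.1% of all). The median change of the 17 probe sets was 0.14 in Ex6DEL, 0.32 in WT and 0.18 in the average, beside 0 for all probe sets tested in each. Red blood cell markers also differed between the times: the mean of 4 genes, of which Hba-a1 was at the floor on all arrays, ran from 5.82 to 6.61 in Ex6DEL 4 h, from 5.00 to 5.68 in Ex6DEL 0 h, from 5.93 to 6.49 in WT 4 h and from 5.16 to 5.52 in WT 0 h. The 4 h and 0 h ranges were apart in both genotypes, no probe set of that list was called in the average (limma adjusted p of 0.0799 for Alas2), and its part in the hCG results was not tested.

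Separation of the arrays gave more cases than the test. In Ex6DEL every 4 h array lay above every 0 h array for 4 probe sets (3 of Vegfc and 1 of Vegfa), where 5.53% of all probe sets did so, and every 4 h array lay below for 3 (Vegfb, Angpt2 and an Ednrb set near background), where 10.6% of all did so. In WT the 4 h arrays lay above for 7 probe sets (3 of Vegfc, 2 of Vegfa and 2 of Adm), where 7.23% of all did so, and below for 2 (Vegfb and Angpt1), where 8.71% of all did so. The Vegfc sets were on the higher side in both genotypes and Vegfb on the lower side in both. Sets of 1 gene are counted apart and are not independent. Some gaps were narrow. For Vegfc at 1440739_at in Ex6DEL the lowest 4 h value was 8.749 and the highest 0 h value 8.737. For Vegfa at 1420909_at in WT they were 8.215 and 8.198. For Angpt1 in WT every 4 h array read 3.051 and the lowest 0 h array 3.076.

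**Figure D2:**
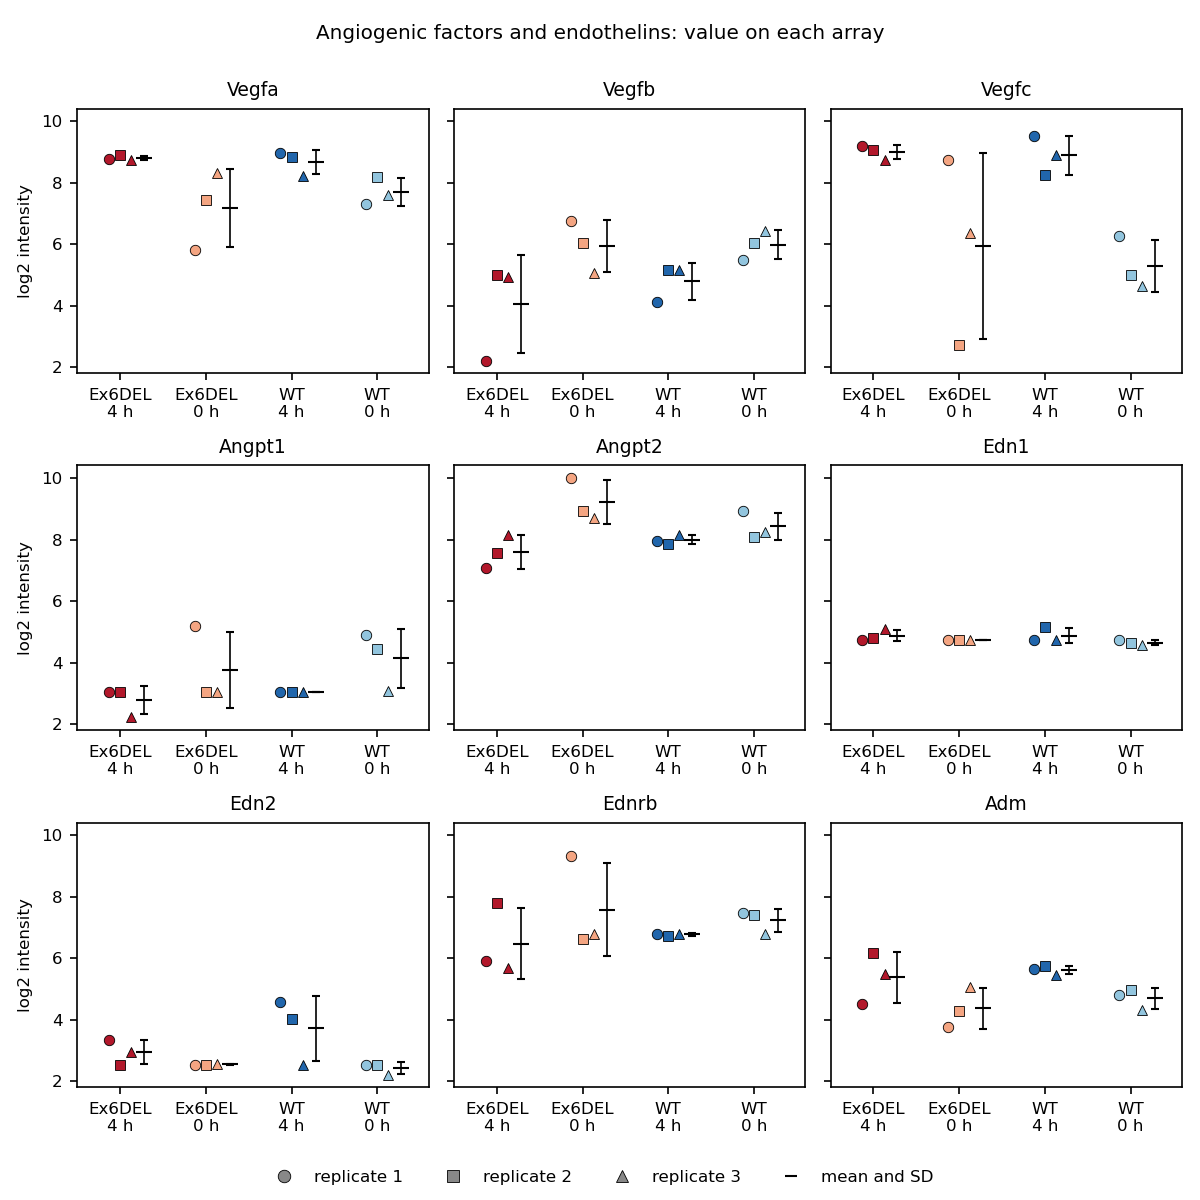
Log2 intensity (y axis) of the probe set with the highest mean for each of the 9 measured genes, by group on the x axis. Symbols are arrays (replicates 1, 2 and 3) and bars are mean and SD of 3 arrays. Vegfc runs from 8.25 to 9.52 on the 4 h arrays, and the Ex6DEL 0 h arrays spread from 2.72 to 8.74.

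Vegfc, the ligand of FLT4 that drives lymphatic growth, had the largest change of these genes. Its probe set with the highest mean, 1440739_at, read 9.20, 9.07 and 8.75 in Ex6DEL 4 h and 8.74, 2.72 and 6.39 in Ex6DEL 0 h. In WT it read 9.52, 8.25 and 8.91 at 4 h and 6.26, 5.01 and 4.65 at 0 h. All 4 h arrays of both genotypes were high. The 0 h arrays were lower and uneven, and Ex6DEL 0 h replicate 1 lay within the 4 h range. The change at this probe set was 3.06 in Ex6DEL (SE 1.27, adjusted p 0.30), 3.59 in WT (SE 1.27, adjusted p 0.301) and 3.32 in the average (SE 0.90, limma adjusted p 0.0682), which missed the threshold.

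The other Vegfc probe sets passed it. Probe set 1439766_x_at averaged 7.88 ± 0.64 in Ex6DEL 4 h, 5.32 ± 1.40 in Ex6DEL 0 h, 7.36 ± 1.18 in WT 4 h and 4.61 ± 0.41 in WT 0 h (SD, n = 3 arrays), and rose by 2.65 on the log2 scale in the average (SE 0.55, limma adjusted p 0.0298), a fold of 6.28. Probe set 1419417_at averaged 7.75 ± 0.37 in Ex6DEL 4 h, 5.11 ± 1.95 in Ex6DEL 0 h, 7.46 ± 0.78 in WT 4 h and 4.55 ± 0.87 in WT 0 h, and rose by 2.78 (SE 0.64, limma adjusted p 0.0420), a fold of 6.85. The 3 Vegfc sets followed each other closely over the 12 arrays, which share their normalization, with Pearson r from 0.929 to 0.979. The order of the groups was the same at all 3: Ex6DEL 4 h, WT 4 h, Ex6DEL 0 h and WT 0 h, and the arrays of each group overlapped those of its neighbours, for WT 4 h and Ex6DEL 0 h through Ex6DEL 0 h replicate 1 alone.

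The size of the Vegfc change was steadier than its call. Leaving out each of the 12 arrays in turn gave changes from 2.31 to 3.02 at 1439766_x_at, with the call kept in 4 of 12 fits (without WT 4 h replicate 3, WT 0 h replicate 1, Ex6DEL 0 h replicate 1 or Ex6DEL 0 h replicate 3) and an adjusted p of up to 0.0753. At 1419417_at the changes ran from 2.30 to 3.28, with the call kept in 2 of 12 fits (without WT 0 h replicate 1 or Ex6DEL 0 h replicate 1) and an adjusted p of up to 0.0998. Without Ex6DEL 0 h replicate 1, the array with high stroma markers, the 3 changes were 4.02 at 1440739_at (adjusted p 0.0220), 3.02 at 1439766_x_at (adjusted p 0.0186) and 3.28 at 1419417_at (adjusted p 0.0147). Ex6DEL 0 h replicate 3 and WT 0 h replicate 1 had the highest mean of LH-induced genes among the arrays labelled 0 h. Without both the 3 changes were 3.67 (adjusted p 0.107), 2.71 (adjusted p 0.0659) and 2.97 (adjusted p 0.0717).

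Vegfa, the main VEGF ligand of blood vessel growth, did not pass the test at either of its probe sets. At 1420909_at it read 8.78, 8.89 and 8.74 in Ex6DEL 4 h and 5.81, 7.46 and 8.31 in Ex6DEL 0 h. In WT it read 8.96, 8.84 and 8.22 at 4 h and 7.31, 8.20 and 7.61 at 0 h. The 4 h arrays lay above the 0 h arrays within each genotype, and the lowest value was that of Ex6DEL 0 h replicate 1. The change was 1.61 in Ex6DEL (SE 0.56, adjusted p 0.212), 0.97 in WT (SE 0.56, adjusted p 0.591) and 1.29 in the average (SE 0.39, limma adjusted p 0.101). Without Ex6DEL 0 h replicate 3 the averaged change was 1.57 with an adjusted p of 0.0285. It was 1.47 (limma adjusted p 0.0526) without both that array and WT 0 h replicate 1. Without Ex6DEL 0 h replicate 1 it was 0.94 (limma adjusted p 0.0697), and the Ex6DEL change was 0.92.

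The other Vegfa probe set, 1451959_a_at, gave another pattern. It read 6.20, 6.98 and 6.49 in Ex6DEL 4 h, 6.22, 7.16 and 6.55 in Ex6DEL 0 h, 6.59, 6.87 and 6.92 in WT 4 h and 6.22, 6.14 and 6.05 in WT 0 h. The groups overlapped in Ex6DEL (change -0.08, SE 0.26) and were apart in WT (change 0.66, SE 0.26, adjusted p 0.350). The averaged change was 0.29 (SE 0.18, limma adjusted p 0.482), and the correlation of both Vegfa sets over the 12 arrays was 0.316.

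Vegfb, a ligand of FLT1, had lower values after hCG in both genotypes without passing the test. It read 2.21, 5.02 and 4.95 in Ex6DEL 4 h, 6.76, 6.03 and 5.08 in Ex6DEL 0 h, 4.11, 5.15 and 5.15 in WT 4 h and 5.51, 6.06 and 6.42 in WT 0 h. The value of 2.21 on Ex6DEL 4 h replicate 1 is the floor of the table, and the other values of that group lay just below the lowest 0 h array of Ex6DEL. The change was -1.90 in Ex6DEL (SE 0.77, adjusted p 0.288), -1.19 in WT (SE 0.77, adjusted p 0.628) and -1.54 in the average (SE 0.55, limma adjusted p 0.155).

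The angiopoietins were lower or equal after hCG, and none passed the test. Angpt2 at 1448831_at read 7.08, 7.58 and 8.17 in Ex6DEL 4 h, 10.02, 8.95 and 8.70 in Ex6DEL 0 h, 7.98, 7.86 and 8.17 in WT 4 h and 8.94, 8.10 and 8.26 in WT 0 h. The Ex6DEL groups did not overlap and the WT groups did. The change was -1.62 in Ex6DEL (SE 0.40, limma adjusted p 0.0995), the smallest adjusted p of these genes within a genotype, and -0.43 in WT (SE 0.40, adjusted p 0.722). The averaged change was -1.02 (SE 0.28, adjusted p 0.0709). The high value of 10.02 was on Ex6DEL 0 h replicate 1, and without that array the Ex6DEL change was -1.22 (adjusted p 0.230). Without Ex6DEL 0 h replicate 3 the averaged change was -1.15, with an adjusted p of 0.0495. It was -1.03 (limma adjusted p 0.0802) without both that array and WT 0 h replicate 1. Without Ex6DEL 0 h replicate 1 it was -0.82 (limma adjusted p 0.0971). The other Angpt2 set, 1459636_at, ran from 2.50 to 3.56 over all arrays, near the table median.

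Angpt1 was hardly above background. Its set 1439066_at had 1 identical value of 3.05 on 7 arrays, and higher values on Ex6DEL 0 h replicate 1 (5.19) and WT 0 h replicates 1 and 2 (4.92 and 4.44). The averaged change was -1.04 (SE 0.45, limma adjusted p 0.262), with a repeated value behind most of the 4 h side. The other Angpt1 set, 1421441_at, was at 2.21 on 11 of the 12 arrays.

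Adm, the vasodilator peptide, rose after hCG at 1 of its 2 probe sets. At 1447839_x_at it read 5.98, 6.30 and 3.97 in Ex6DEL 4 h, 3.96, 3.80 and 4.05 in Ex6DEL 0 h, 6.68, 5.82 and 5.76 in WT 4 h and 4.07, 4.68 and 3.61 in WT 0 h. Ex6DEL 4 h replicate 3 stayed within the 0 h range, and the WT groups were apart. The change was 1.48 in Ex6DEL (SE 0.58, adjusted p 0.269), 1.97 in WT (SE 0.58, adjusted p 0.207) and 1.72 in the average (SE 0.41, limma adjusted p 0.0461), a fold of 3.30. Leaving out each array in turn gave changes from 1.50 to 2.09, and the call was kept in 1 of 12 fits, without Ex6DEL 4 h replicate 3. Without both Ex6DEL 0 h replicate 3 and WT 0 h replicate 1 the change was 1.74 (adjusted p 0.108).

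The Adm probe set with the highest mean, 1416077_at, read 4.51, 6.16 and 5.50 in Ex6DEL 4 h, 3.76, 4.30 and 5.08 in Ex6DEL 0 h, 5.65, 5.75 and 5.47 in WT 4 h and 4.81, 4.98 and 4.33 in WT 0 h. The Ex6DEL groups overlapped and the WT groups did not. The averaged change was 0.96 (SE 0.31, limma adjusted p 0.122), and the correlation of both Adm sets over the 12 arrays was 0.656.

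Both endothelin ligands had 1 repeated value on several arrays, and neither passed the test. Edn2 read 3.34, 2.55 and 2.96 in Ex6DEL 4 h, 2.53, 2.55 and 2.58 in Ex6DEL 0 h, 4.59, 4.04 and 2.55 in WT 4 h and 2.55, 2.55 and 2.21 in WT 0 h. A repeated value of 2.55 stood on 5 arrays, WT 4 h replicate 3 among them, and only 4 arrays, all of 4 h, stood well above it. The change was 0.40 in Ex6DEL (SE 0.45, adjusted p 0.742), 1.29 in WT (SE 0.45, adjusted p 0.295) and 0.84 in the average (SE 0.32, limma adjusted p 0.185). WT 4 h replicate 3 decided the call: without it the change was 1.88 in WT (adjusted p 0.0297) and 1.14 in the average (adjusted p 0.0126). Edn1, the endothelin of endothelial cells, had an identical value of 4.74 on 7 arrays and ran from 4.60 to 5.17 over all 12, with an averaged change of 0.18 (SE 0.09, limma adjusted p 0.309).

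Ednrb, a receptor that binds all endothelins, lay above the table median on all arrays at only 1 of its 3 probe sets. At 1437347_at it read 5.92, 7.81 and 5.70 in Ex6DEL 4 h, 9.32, 6.63 and 6.80 in Ex6DEL 0 h, 6.80, 6.74 and 6.80 in WT 4 h and 7.48, 7.41 and 6.80 in WT 0 h, with a repeated value of 6.80 on 4 arrays. The groups overlapped in both genotypes, and the averaged change was -0.78 (SE 0.54, limma adjusted p 0.532). The value of 9.32 was on Ex6DEL 0 h replicate 1, and without that array the change was -0.35. The other Ednrb sets ran from 2.42 to 2.91 and from 2.27 to 3.25.

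The order of the 4 groups differed between genes, taken from the highest group mean down at the probe set with the highest mean. Vegfa ran Ex6DEL 4 h, WT 4 h, WT 0 h and Ex6DEL 0 h, and WT 4 h and WT 0 h were the only neighbours whose arrays did not overlap. Adm and Edn2 both had WT 4 h ahead of Ex6DEL 4 h, with the 0 h groups after them, and all neighbours overlapped. Angpt2 and Ednrb ran the other way, Ex6DEL 0 h, WT 0 h, WT 4 h and Ex6DEL 4 h, and Vegfb ran WT 0 h, Ex6DEL 0 h, WT 4 h and Ex6DEL 4 h. All neighbours overlapped or shared a value in these 3 genes as well.

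**Figure D3:**
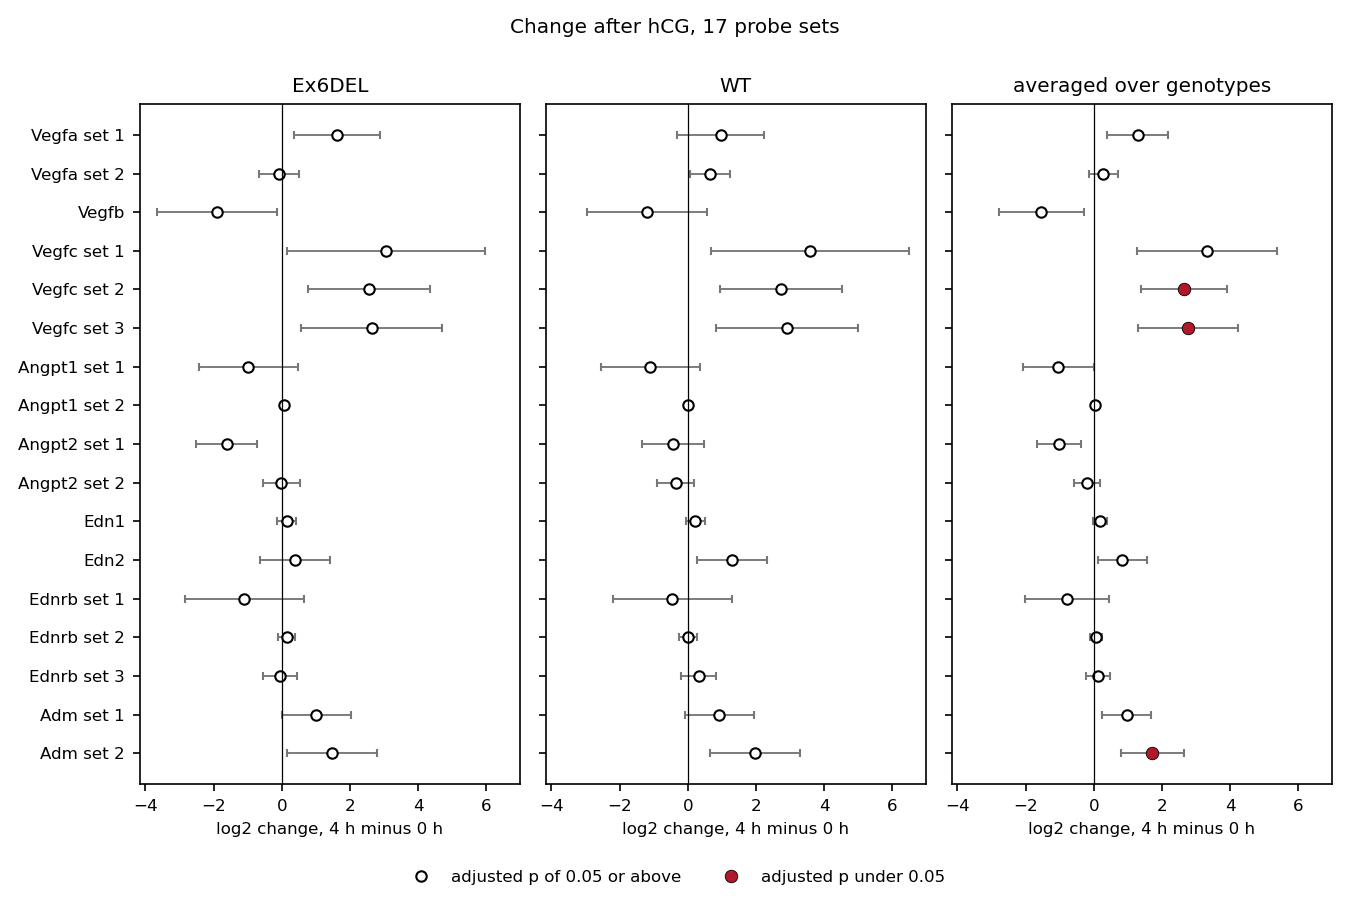
Log2 change, 4 h minus 0 h (x axis), of the 17 probe sets (rows) in Ex6DEL, in WT and averaged over genotypes, with 95% intervals of the model from 3 arrays per group. Sets of a gene are numbered from the highest mean down. Filled points mark an adjusted p under 0.05 and are 2 sets of Vegfc and 1 of Adm, in the averaged panel only.

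The comparison of genotypes set Ex6DEL against WT at each time and compared their hCG responses. No probe set of these genes was called by limma between Ex6DEL and WT at 4 h, at 0 h or in the difference of the hCG responses (the interaction), and none had an unadjusted p under 0.05 in any of the 3, where 1.78% of all probe sets lay under it at 4 h, 4.67% at 0 h and 2.72% in the interaction. Few probe sets were called on the whole table either: 0.00858% at 4 h, 0.0286% at 0 h and 0.0286% in the interaction. The smallest unadjusted p of these genes was 0.121 at 4 h (Edn2), 0.0777 at 0 h (Angpt2) and 0.0649 in the interaction (Angpt2), with adjusted p-values of 1, 0.927 and 0.889.

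The differences could not be measured finely. Over the 9 probe sets with the highest mean, Ex6DEL minus WT ran from -0.78 to 0.13 at 4 h and from -0.51 to 0.79 at 0 h. Vegfc differed by 0.11 at 4 h, with a 95% interval of -2.79 to 3.01, so a change of several fold in either direction lies within it. For Vegfa the difference at 4 h was 0.13 (interval -1.14 to 1.40), and for Adm it was -0.23 (interval -1.25 to 0.78). Edn1, whose values are mostly repeated, had the narrowest interval, -0.28 to 0.28. The Angpt2 response was lower in Ex6DEL than in WT by an interaction of -1.19 (SE 0.56, interval -2.46 to 0.09, limma adjusted p 0.889), and without Ex6DEL 0 h replicate 1 it was -0.79. The Edn2 level at 4 h was 2.95 ± 0.40 in Ex6DEL and 3.73 ± 1.06 in WT (SD, n = 3 arrays), a difference of -0.78 (interval -1.81 to 0.25).

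**Figure D4:**
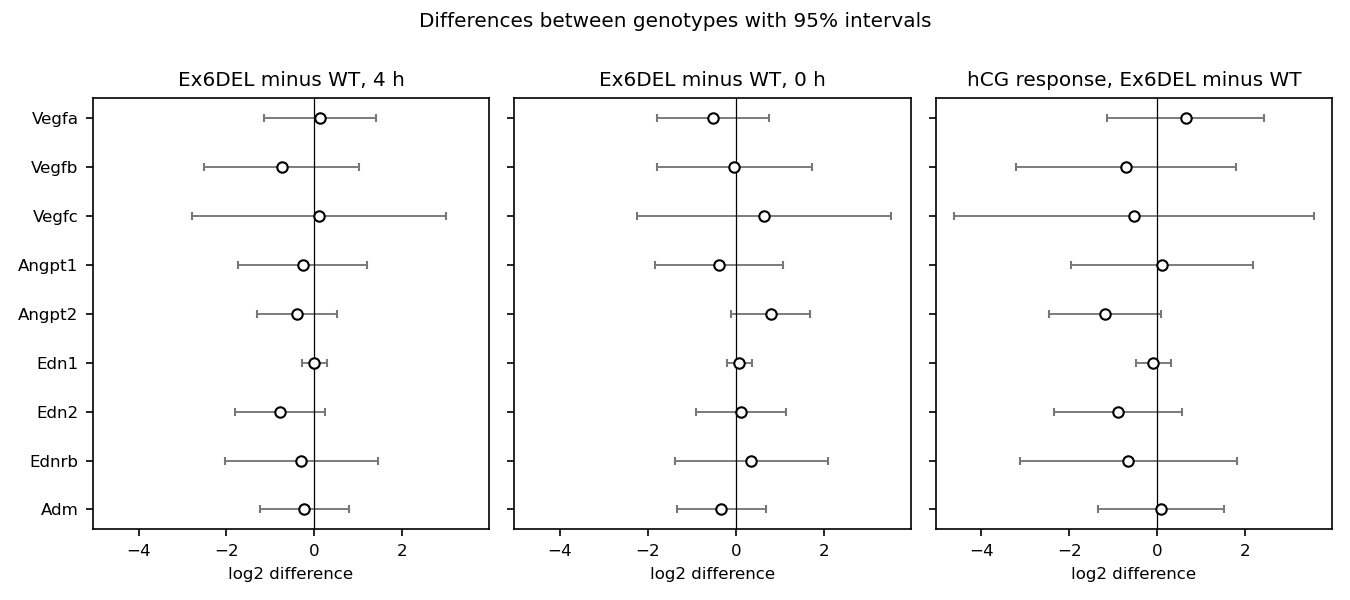
Ex6DEL minus WT at 4 h, at 0 h and in the hCG response (x axis, log2 difference) for the probe set with the highest mean of each of 9 genes (rows), with 95% intervals of the model from 3 arrays per group. Every interval includes 0, and that of the Vegfc response is the widest, from -4.63 to 3.57.

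The receptors through which these ligands act were taken from lists fixed for the pathways. In bulk samples such as these, fewer cells of a type and less RNA per cell cannot be told apart, which holds for each gene here. Of the VEGF receptors, co-receptors and other ligands, 0 of 19 probe sets (7 genes) were called in the averaged response by limma. Of all probe sets 6.06% were called there. The median change of the list was 0.07. Kdr, the main signalling receptor of VEGFA, read from 8.50 to 9.39 at 4 h and from 5.91 to 9.13 at 0 h, with an averaged change of 1.13 (SE 0.47, adjusted p 0.240). Flt1, which binds VEGFA and VEGFB, read from 4.49 to 6.02 at 4 h and from 3.54 to 5.02 at 0 h, a change of 0.64 (adjusted p 0.370). Flt4, the receptor of VEGFC, had a change of -1.28 (SE 0.51, adjusted p 0.213), with values of 4.24 to 7.01 at 4 h and 6.40 to 8.49 at 0 h, so the values of the receptor and of its ligand differed in opposite directions without a call for the receptor. The co-receptors Nrp1 and Nrp2 had averaged changes of 0.30 (adjusted p 0.762) and, at the Nrp2 set with the smallest p, 0.38 (adjusted p 0.153). Pgf was at the floor of 2.21 on all 12 arrays.

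The angiopoietin receptors were close to background. Tek ran from 3.10 to 3.98 at 4 h and from 2.63 to 3.40 at 0 h (change 0.22, adjusted p 0.615), and its partner Tie1 was at the floor on all but 1 array. Of the angiopoietin receptors and relatives 0 of 11 probe sets were called in the average by limma, where 6.06% of all were. Those with the smallest p were Angptl1, at -1.36 (adjusted p 0.143), and Angptl6, at -0.48 (adjusted p 0.269). Angptl6 had 1 repeated value of 2.36 on 8 arrays. Of 15 endothelial markers, 1 (Pecam1) was at the floor on all arrays and 4 (Pecam1, Emcn, Tie1 and Vwf) had a mean under the table median. The mean of the 15 ran from 4.23 to 5.19 in Ex6DEL 4 h, from 4.40 to 5.09 in Ex6DEL 0 h, from 4.52 to 4.99 in WT 4 h and from 3.90 to 5.11 in WT 0 h. Those ranges overlap in both genotypes.

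Among adrenomedullin receptors and relatives 1 probe set of 12 was called in the average, where 6.06% of all were. It was that of Ramp3, a partner of the adrenomedullin receptor. It read 7.62 ± 0.35 in Ex6DEL 4 h, 5.25 ± 0.56 in Ex6DEL 0 h, 6.55 ± 0.55 in WT 4 h and 5.13 ± 0.68 in WT 0 h (SD, n = 3 arrays), and every 4 h array lay above every 0 h array. It rose by 1.89 on the log2 scale in the average (SE 0.31, limma adjusted p 0.0123). Within the genotypes the changes were 2.37 in Ex6DEL (adjusted p 0.0516) and 1.42 in WT (adjusted p 0.224), and neither was called. Calcrl, the receptor itself, ran from 3.32 to 3.73 at 4 h and from 3.32 to 3.87 at 0 h, and Ramp2 had a change of -0.80 (adjusted p 0.429) with a high value on Ex6DEL 0 h replicate 1. For endothelins, Ece1, the enzyme that releases the active peptide, had a change of -0.94 (SE 0.39, adjusted p 0.223). Of converting enzymes and Edn3, 0 of 13 probe sets were called in the average by limma, where 6.06% of all were. After Ece1 the smallest p there was that of an Mme set, which encodes the peptidase neprilysin, with a change of 0.03 (SE 0.03, adjusted p 0.615) and 1 repeated value on 10 arrays.

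**Figure D5:**
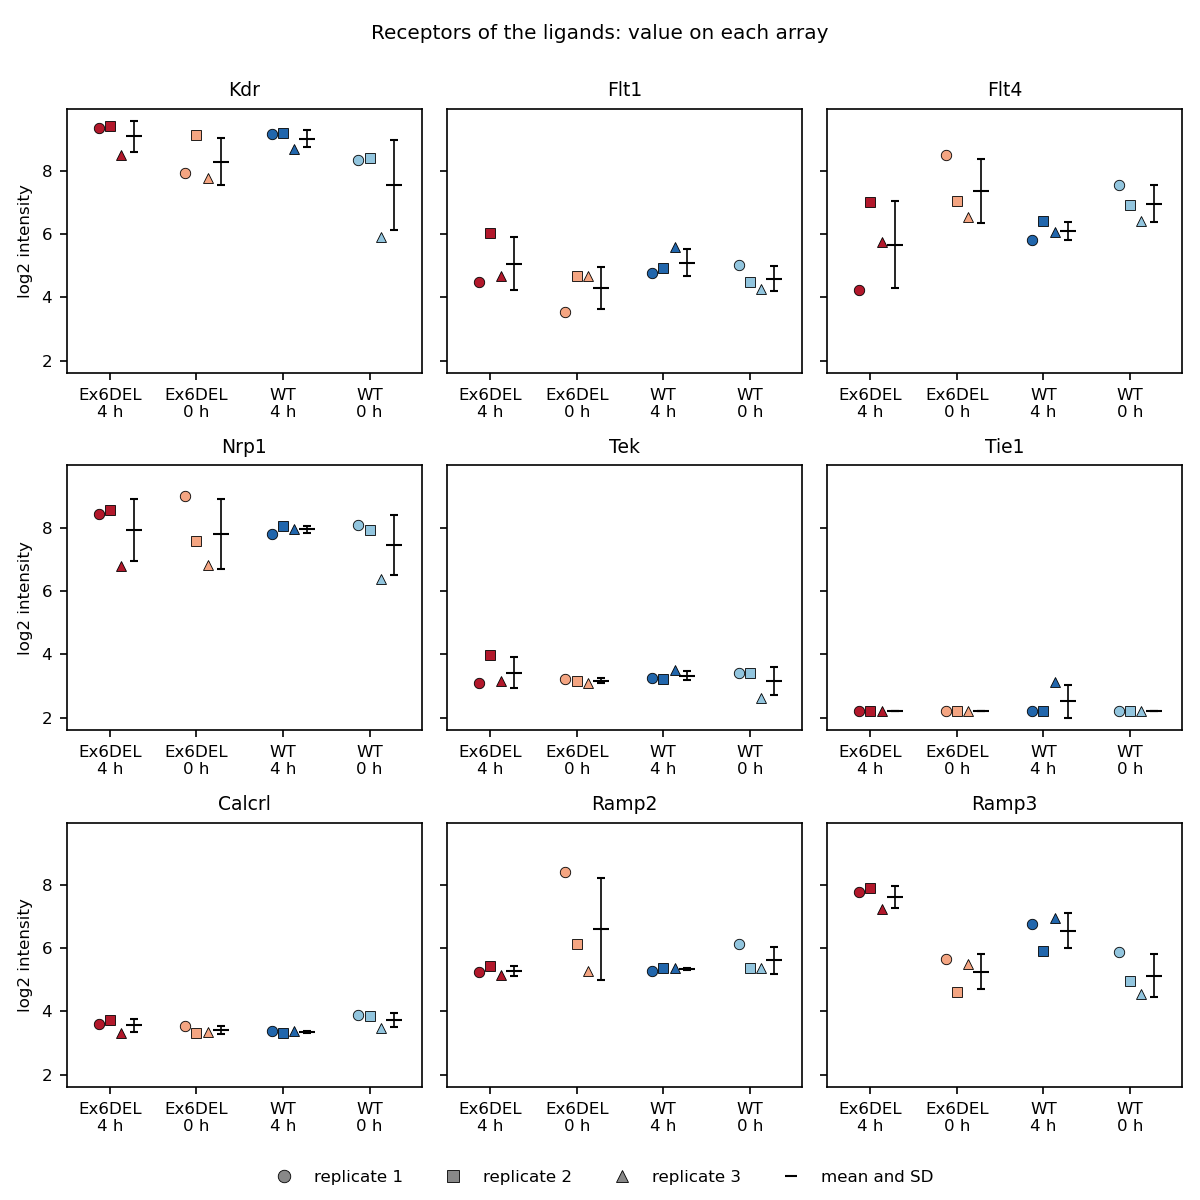
Log2 intensity (y axis) of 9 receptor genes by group on the x axis, each at the probe set with its highest mean. Symbols are arrays (replicates 1, 2 and 3) and bars are mean and SD of 3 arrays. Ramp3 is higher on all 4 h arrays than on any 0 h array, while Tie1 sits at the floor of 2.21 on all arrays but 1.

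Other lists of the pathway are set beside the 6.06% of all probe sets called in the average. Of the hypoxia-inducible factor pathway, which controls Vegfa and Adm in many cells, 0 of 30 probe sets were called in the average by limma. Those with the smallest p were sets of Egln3, a prolyl hydroxylase induced by hypoxia, and Epas1. Their changes were 4.33 (SE 1.11, limma adjusted p 0.0583) and -1.03 (SE 0.28, limma adjusted p 0.0725). That Egln3 set read from 6.69 to 9.68 on the 4 h arrays. It read 9.13 on Ex6DEL 0 h replicate 3 and from 2.86 to 4.15 on the other 0 h arrays. The part of that array in the missed call was not tested. Of 29 probe sets of other angiogenic factors 0 were called, with Esm1, an endothelial secreted proteoglycan, at 1.83 (SE 0.45, adjusted p 0.0524) and the platelet-derived growth factor gene Pdgfa at 1.24 (SE 0.34, adjusted p 0.0728). Of 21 probe sets of inhibitors of angiogenesis, 1 rose and 1 fell. Sema3a, a semaphorin that competes with VEGF at neuropilin, rose by 1.44 (SE 0.32, limma adjusted p 0.0363). A set of the thrombospondin Thbs2, 1450663_at, fell by 0.42 (SE 0.09, limma adjusted p 0.0323), and by 0.84 in Ex6DEL alone (adjusted p 0.0349). Its values were 2.32 to 2.49 at 4 h and 2.32 to 3.61 at 0 h, close to background. Beside these, 19 of 23 probe sets of LH-induced genes rose in the average, with a median change of 5.27 over the list. They belonged to Btc, Has2, Pgr, Ptgs2, Ptx3, Runx1, Snap25, Sult1e1 and Tnfaip6, which are 9 of its 11 genes.

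Likeness over the 12 arrays was taken for the 3 genes with the widest range, as a description without a test, since all probe sets share arrays and normalization. Vegfc, with a range of 6.80, was most like Fzd1 (Pearson r 0.968), Rnf128 (0.936), Rrbp1 (0.935), Cgref1 (0.934) and Ndfip1 (0.927). Vegfb, with a range of 4.55, was most like Selenbp1 (0.956) and Disp1 (0.951), followed by Mrpl21, Macroh2a2 and Tmem256 at 0.945 to 0.948. Ednrb, with a range of 3.62, was most like Afg3l2 (0.955) and Acsl5 (0.944), followed by Trnau1ap, Tfpi and Ndufab1 at 0.924 to 0.928. A single array set 1 end of some ranges: Vegfb read 2.21 on Ex6DEL 4 h replicate 1, and Ednrb 9.32 on Ex6DEL 0 h replicate 1. How far the correlations rest on those arrays was not tested.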

How the data were processed

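RNA of granulosa cells was measured on 12 Affymetrix arrays in 4 groups of 3, taken from the labels. Per the submitters' processing notes, the deposited log2 intensity of each probe set was made with GCRMA (version not given). The genome build was not given in the sources used here. Platform annotation gave exactly 1 gene symbol to 34958 probe sets. The 932 with several symbols and the 9211 not listed were left out.

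A linear model of the 4 groups, without covariates, was fitted to all 12 arrays with limma 3.58.1 (R 4.3.3) and its eBayes step without trend or robust estimation, which was tested on simulated data. It had 8 residual and 0.552 prior degrees of freedom. Contrasts were 4 h minus 0 h in each genotype and averaged, Ex6DEL minus WT at each time, and the interaction. Tests were two-sided, Benjamini-Hochberg over all probe sets, called at an adjusted p under 0.05. The arrays give no counts. Their number limits precision, and so do the repeated values and the arrays that stood apart.

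The genes, lists, tests and alternatives were chosen with earlier results of these data known. Named are all 10 genes and, from 8 pathway lists, the probe sets called, otherwise the 2 with the smallest p, and the receptors, and 5 like genes for each of 3 genes. Marker lists cover 6 cell types. Leukocyte, oocyte and red blood cell markers had 0 probe sets called by limma in the average, where 6.06% of all were. So did the endothelial and stroma markers, and of the granulosa markers Fshr and Hsd17b1 fell. Alternatives were other scalings (quantile, shift to 1 median), a filter and a floor on dim probe sets, 1 probe set or the mean per gene, eBayes with trend and robust estimation, array weights, the replicate block, only the groups compared, a stricter threshold and arrays left out.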

Additional observations from a re-analysis of the deposited data

How the results depend on the processing

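For the averaged hCG response 3 of the 17 probe sets were called, where 2119 (6.06%) of all probe sets were. Several alternatives gave other counts, listed with the calls among all probe sets tested and their share. With all arrays shifted to 1 median 5 were called (2669 or 7.63% of all). Among probe sets with a mean above the table median, 13 of them of these genes, it was 7 (3798 or 19.8%). With 1 probe set per gene, the one with the highest mean, it was 0 (1768 or 9.72%). The 3 sets called in the main fit do not have the highest mean of their gene, so that fit did not hold them. Without Ex6DEL 0 h replicate 3 and WT 0 h replicate 1 the count was 0 (2856 or 8.17%). Those arrays had the highest mean of LH-induced genes among the arrays labelled 0 h. At an adjusted p under 0.01 it was 0 (1.14%), and with 1 array left out 0 to 3 (2.93% to 8.12%). With a floor at the table median 2 were called (5.40%), and likewise 2 with the mean of each gene over its probe sets (9.34%). In WT, array weights called 3 (all Vegfc), where 6.49% of all probe sets were called against 0.618% in the main fit. Leaving out 1 array called 0 to 1 in WT (Edn2, without WT 4 h replicate 3, where 0.850% of all were called). In Ex6DEL, 1 (Angpt2, lower) was called among probe sets above the table median, where 7.77% of those tested were. Fewer probe sets were tested there and with 1 set per gene, and the cause of the other shifts was not tested. No probe set of these genes was called between genotypes or in the interaction under any alternative run, where at most 0.323% of all were.

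The labels do not say that the replicate numbers pair arrays, and not every same-numbered pair had deviations correlated over 0.1 (12 of 18 did, range -0.33 to 0.69, against -0.60 to 0.43 for other pairs), so the numbers were not taken as pairs. Of the 12 arrays, 9 correlated best with one of their own number, a hint from the data and not from the design. With the number as a replicate block, 3 probe sets were called in the average, where 5.34% of all were, and 0 in each other contrast. Calls on the whole table went to 116 (0.332%) in WT and 55 (0.157%) in Ex6DEL.

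Single values were recomputed for the probe set with the highest mean of each gene and for the 3 called sets. There, changes of sign were in genotype differences and interactions that were not called. The other probe sets were not followed in this way, and some of their small hCG changes can turn as well: Angpt2 at 1459636_at was -0.02 in Ex6DEL, and 0.10 without Ex6DEL 0 h replicate 1. At 4 h they were Vegfa with the mean of its probe sets, -0.051, and Edn1 with quantile normalization, 0.0040. At 0 h they were Vegfb (0.16) and Angpt1 (0.36) without the same 2 arrays, and Vegfc (-0.027) and Ednrb (-0.27) with array weights. In the interaction they were Vegfa (-0.047) and Adm (-0.20) with the mean of probe sets, Vegfc (0.22) with array weights and Angpt1 (-0.63) without them. With 1 array, or those 2, left out the 4 h differences ran from -0.10 to 0.28 for Vegfa, -1.23 to 0.18 for Vegfb, -0.21 to 0.43 for Vegfc, -0.10 to 0.14 for Edn1, -0.97 to 0.088 for Ednrb and -0.62 to 0.21 for Adm. The 0 h differences ran from -1.27 to 0.18 for Vegfa, -0.44 to 0.40 for Vegfb, -0.75 to 2.25 for Vegfc, -1.09 to 0.36 for Angpt1 and -0.51 to 0.87 for Ednrb. The interactions ran from -0.043 to 1.40 for Vegfa, -1.19 to 0.21 for Vegfb, -2.14 to 0.86 for Vegfc, -0.63 to 0.83 for Angpt1, -0.19 to 0.057 for Edn1, -1.32 to 0.21 for Ednrb and -0.29 to 0.53 for Adm. Quantile normalization moved the median of all probe sets above the table median by over 0.1 in the interaction, to -0.01, against -0.17 as deposited, and at 0 h to -0.01, against 0.11 as deposited.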
